A study of Mus musculus with 6 samples.

Results

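The genes described here make cholesterol and fatty acids or control their synthesis. They are 30 genes chosen by name from what their products are known to do, and all 30 were among the 54532 genes measured. The list does not hold every gene of these pathways. It was divided by role into 7 genes of the mevalonate branch, 11 genes between squalene and cholesterol, 5 regulators and carriers, and 7 genes of fatty acid synthesis, elongation and desaturation.

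RNA-seq was performed on thioglycollate-elicited peritoneal macrophages from wild-type C57BL/6J mice, to ask how muscone, a macrocyclic ketone of musk, alters RNA levels during NLRP3 inflammasome activation. Control cells received neither stimulus nor muscone. Model cells received LPS at 500 ng/mL, starting 5.5 h before ATP, and then 2 mM ATP for 0.5 h. The MUS group differed from Model by 50 µM muscone, added 0.5 h before ATP. Each group had 2 libraries, labelled replicate and batch 1 and 2. The labels do not say whether the replicates came from separate animals or cultures, so p-values measure the spread between these samples, which may be technical.

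Cholesterol is built from acetyl-CoA through mevalonate, isoprenoid units and squalene, and the squalene ring product lanosterol is then trimmed and rearranged into cholesterol. When sterols in the endoplasmic reticulum are scarce, the carrier SCAP brings the transcription factor SREBP-2 to the Golgi for cleavage, and INSIG proteins hold the pair back when sterols are plentiful. Fatty acids are built from the same acetyl-CoA by ATP citrate lyase, acetyl-CoA carboxylase and fatty acid synthase, and are then lengthened and desaturated. In macrophages these lipids supply membranes, and stimulation through Toll-like receptors is known to reshape their synthesis.

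Values are FPKM, fragments scaled by gene length and library scale, as the authors deposited them. Whole fragments on each gene could be recovered, within a tolerance of 0.1 of a fragment, and the libraries held between 15526321 and 17135442 fragments on genes. Fold changes are differences of mean log2(FPKM + 1), a scale that understates the change of low genes. Genes with a mean of at least 1 FPKM were tested with limma, and 9794 genes passed, among them 25 of the 30. A gene was called when its Benjamini-Hochberg adjusted p was at most 0.05 and its log2 fold change was beyond 1 in either direction. With 2 libraries against 2, an exact permutation test cannot give a two-sided p below 0.333, so the p-values depend on limma's pooling of variance over genes.

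The cells carried macrophage RNA. All 8 macrophage markers passed the filter, and their summed FPKM was 11961 and 13746 for the Control pair, 14283 and 9574 for the Model pair and 13236 and 11397 for the MUS pair, with Lyz2 the most abundant. Summed B cell, T cell, mast cell and mesothelial markers stayed under 2 FPKM in each library, and red cell markers were listed at 0 throughout. Adipocyte markers, of interest because fat cells make fatty acids, summed to 0.118 FPKM in Model replicate 1 and 0 in the others, with 2 of 4 at 0 in all libraries. Of 8 neutrophil markers, 3 were at 0 in all libraries and 1, S100a8, passed the filter. The neutrophil FPKM sum was 13.8 and 30.9 for the Control pair, 112 and 57.7 for the Model pair and 64.6 and 50.9 for the MUS pair, nearly all of it S100a8. Eosinophil markers had summed FPKM of 4.17 and 2.78 for the Control pair, 1.95 and 1.42 for the Model pair and 1.63 and 1.60 for the MUS pair, with Siglecf the most abundant and 3 of 5 at 0 in all libraries. All 4 fibroblast markers passed the filter, with summed FPKM of 18.1 and 16.9 for the Control pair, 20.4 and 32.5 for the Model pair and 20.2 and 22.8 for the MUS pair, with Col1a1 the most abundant. These sums hide genes that moved in different directions. In Model vs. Control, by limma with Benjamini-Hochberg adjustment, the macrophage marker Csf1r was called lower, at -1.37 (adjusted p = 0.0289), and Cd14 and Fcgr1 higher, at 2.64 (adjusted p = 0.0258) and 3.57 (adjusted p = 0.00326). S100a8 was called higher, at 1.90 (adjusted p = 0.0365), as was the fibroblast marker Dcn, at 1.18 (adjusted p = 0.0161), while Col1a1, Col1a2 and Col3a1 were not called. In MUS vs. Control the same calls were made, apart from S100a8, with Dcn at 1.19 (adjusted p = 0.0121). The part of these other cells in the results below was not tested. In bulk RNA, fewer cells of a type and less RNA per cell cannot be told apart.

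The stimulus was visible in the cytokine genes Il1b, Il6, Tnf and Cxcl10 and in Nos2, of which 5 of 5 were called higher in Model than in Control. Control replicate 2 stood apart from Control replicate 1 in these genes. Il1b was at 0.550 and 34.2 FPKM in the Control libraries, Tnf at 8.62 and 183, and Cxcl10 at 0.505 and 29.2. Control replicate 2 was also the higher Control library for 25 of the 30 lipid synthesis genes, by a median log2 difference of 0.35, against 5213 of 9794 genes tested and a median of 0.04. In Model 17 of the 30 were higher in replicate 2, and in MUS 15 were. Model replicate 1 stood apart in another way, with 24906 genes holding a fragment against 17406 to 19200 in the other libraries. Its genes deviated with a slope of -0.06 on log2 gene length, so its long genes were low. Control replicates 1 and 2 had slopes of 0.02 and 0.04, in the opposite direction, and the other libraries had -0.01 to 0.00.

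**Figure D1:**
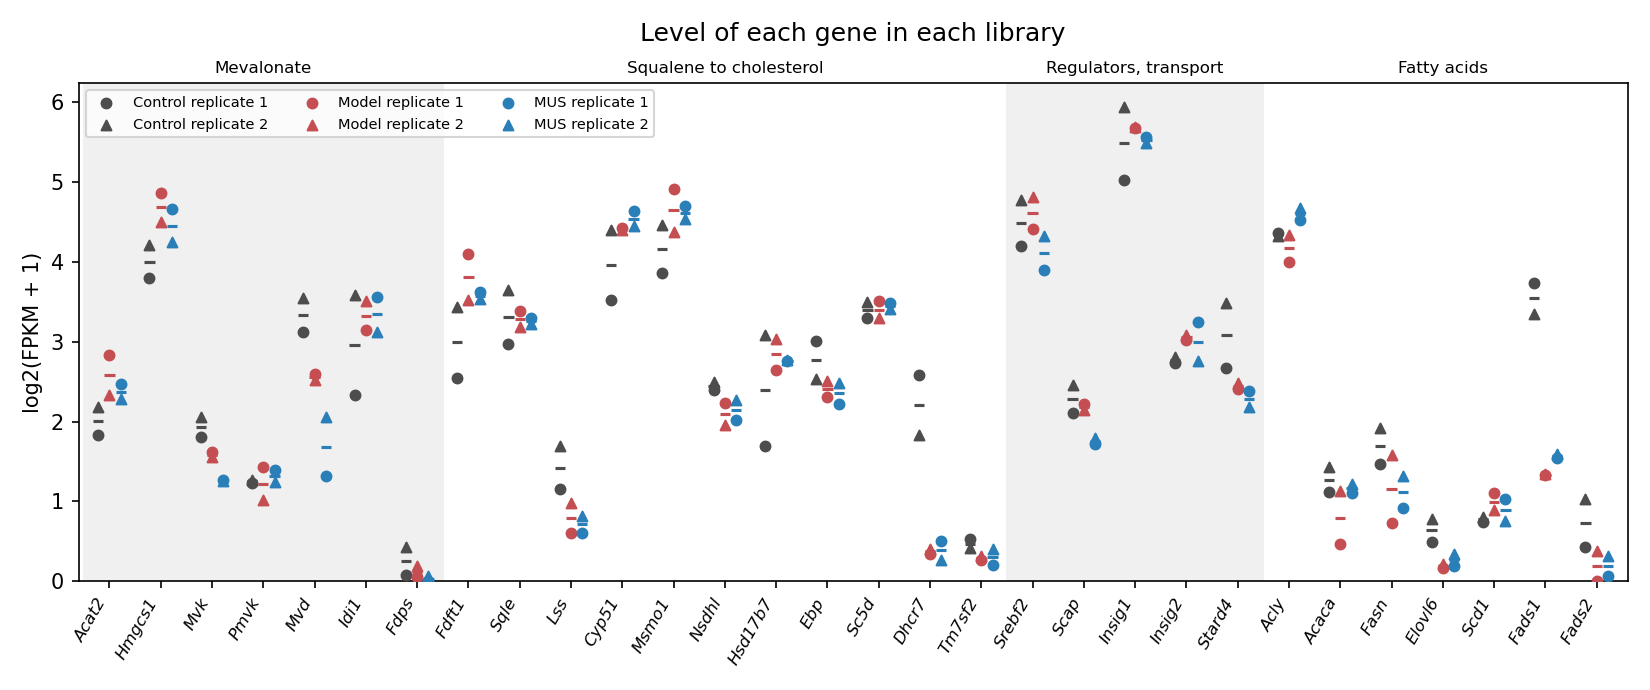
Level of each of the 30 genes, by role, as log2(FPKM + 1) on the vertical axis. Circles are replicate 1 and triangles replicate 2 of Control (grey), Model (red) and MUS (blue), and short lines are group means. Fads1 and Dhcr7 lie lower in all Model and MUS libraries than in both Control libraries, and the Control triangle lies above the Control circle for 25 of the 30 genes.

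After LPS and ATP, 2 genes of the list, Dhcr7 and Fads1, were called lower, and no member was called higher. Of all genes tested, 15.1% were called in Model vs. Control, 9.5% higher and 5.56% lower, beside 2 of 25 members lower. Of these 2, Dhcr7 reached the filter only through its Control level. At an unadjusted p under 0.05, 3 of 25 members passed, the third being Mvd, against 33.6% of all genes tested. The median log2 fold change of the 25 was -0.03, with 11 higher and 14 lower, against 0.04 over all genes tested. With rescaling to fragment totals it was -0.52, with 4 higher and 21 lower, against -0.41 over all genes. With rescaling to equal totals without mitochondrial and top 20 genes it was -0.60, with 3 higher and 22 lower, against -0.48. Quantile normalization gave -0.26, with 9 higher and 16 lower, against -0.06. Both libraries of one group lay above both of the other for 5 tested members with Model higher and 8 with Model lower, while the shares over all genes tested were 32.6% and 28.5%. The 8 include Dhcr7 and Lss, which both passed the filter only through Control. The voom method on recovered fragments also called 0 members higher and 2 lower, beside 1077 genes higher and 719 lower of the same 9794.

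Dhcr7 encodes the reductase of the last step to cholesterol from 7-dehydrocholesterol (ENSMUSG00000058454, chr7:143823145-143848410, plus strand, GRCm38). It was measured at 4.98 and 2.57 FPKM for the Control pair, 0.268 and 0.322 for the Model pair and 0.421 and 0.201 for the MUS pair. Both Control libraries lay above all 4 stimulated libraries, and the Model and MUS values overlapped. These levels rested on 663 and 342 fragments in Control and on 22, 29, 37 and 19 in the stimulated libraries. Dhcr7 in Model vs. Control had a log2 fold change of -1.84 (SE 0.30, adjusted p = 0.00977) by limma with Benjamini-Hochberg adjustment, and the Model mean was 0.0781 of the Control mean. Its difference was -2.24 in batch 1 and -1.43 in batch 2. Its mean was 3.78 FPKM in Control, 0.295 in Model and 0.311 in MUS, so it passed the filter through Control alone, the group in which it is high, and its place among the tested genes depended on that difference. With no filter on low values the adjusted p was 0.0792, so the call was lost, and over the alternatives it ranged from 2.86e-05 to 0.0792. Without Control replicate 1 the mean of Dhcr7 was below 1 FPKM and it was not tested.

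Fads1 encodes the delta-5 desaturase that makes arachidonic acid, the precursor of prostaglandins and leukotrienes (ENSMUSG00000010663, chr19:10182888-10196870, plus strand, GRCm38). It was measured at 12.3 and 9.21 FPKM for the Control pair, 1.52 and 1.53 for the Model pair and 1.91 and 2.01 for the MUS pair. Control lay above the other libraries with no overlap, and both MUS libraries lay above both Model libraries by a small margin. Fads1 in Model vs. Control had a log2 fold change of -2.21 (SE 0.21, adjusted p = 0.00214) by limma with Benjamini-Hochberg adjustment, and the Model mean was 0.142 of the Control mean. Its difference was -2.40 in batch 1 and -2.01 in batch 2. Fads1 was called in 18 of 18 alternatives that gave it a value, and with a mean under 5 FPKM it was not tested at that filter.

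In the mevalonate branch, 0 of 6 tested genes were called and 3 had higher and 3 lower means in Model. Mvd encodes the decarboxylase that yields isopentenyl diphosphate (ENSMUSG00000006517, chr8:122433601-122443422, minus strand, GRCm38). It was measured at 7.74 and 10.7 FPKM for the Control pair, 5.03 and 4.72 for the Model pair and 1.49 and 3.15 for the MUS pair. The groups did not overlap, with Control highest and MUS lowest. Model vs. Control gave a log2 fold change of -0.78 (SE 0.30, 95% confidence interval -1.48 to -0.09, adjusted p = 0.114) by limma with Benjamini-Hochberg adjustment and did not pass. The other tested genes of the branch had log2 fold changes from -0.34 in Mvk to 0.68 in Hmgcs1, the synthase that precedes mevalonate. Fdps, the farnesyl diphosphate synthase, had at most 0.343 FPKM and was not tested. Its transcripts share 26.2% of their 50-base stretches with other genes, so its low level is uncertain. The shares were 39.1% for Acat2 and 17.7% for Idi1, so the levels of these tested genes, with means of 4.11 and 8.64 FPKM, are uncertain too.

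Between squalene and cholesterol, 10 of 11 genes were tested, and Dhcr7 was the one called. Sqle encodes squalene epoxidase, a rate-setting oxygenase of the pathway. It was measured at 6.87 and 11.6 FPKM for the Control pair, 9.45 and 8.10 for the Model pair and 8.86 and 8.33 for the MUS pair. The Control values spanned those of both other groups, and Model vs. Control gave a log2 fold change of -0.03 (SE 0.28, 95% confidence interval -0.69 to 0.63, adjusted p = 0.951) by limma with Benjamini-Hochberg adjustment. The other tested genes ranged from -0.64 in Lss, the cyclase that forms lanosterol, to 0.81 in Fdft1, the squalene synthase, and did not pass. Lss also passed the filter through Control alone, with means of 1.73 FPKM there, 0.741 in Model and 0.640 in MUS. Fdft1 overlaps Ctsb on the opposite strand, whose mean was 1786 FPKM, and reads of the pair could not be told apart without strand. Tm7sf2, a sterol reductase, had at most 0.438 FPKM and was not tested.

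The calls in these branches differed when a Control library was left out, and the genes in which they did are named here after their values were seen. With 1 Control library left, its spread is assumed to be that of the Model and MUS pairs, so calls gained or lost in this way describe the setting and do not test the gene. When Control replicate 2 was left out, 4 members were called in Model vs. Control in place of 2, while calls rose from 1475 to 2024 of 9766 genes tested, 1230 of them higher. The added members were Fdft1, with a log2 fold change of 1.26, and Hsd17b7, a ketosteroid reductase, with 1.15, both higher in Model. Without Control replicate 2 and Model replicate 1 together, an alternative chosen after seeing the data, 4 members and 2784 of 9840 genes were called, with Hsd17b7 at 1.34 and Idi1, the isopentenyl diphosphate isomerase, at 1.18 as the higher ones. That setting leaves 1 Control and 1 Model library, which are assumed to vary like the MUS pair. Hsd17b7 was at 2.24 and 7.52 FPKM in Control, and Idi1 at 4.03 and 11.04. Without Control replicate 1, in contrast, Fads1 was the only member called, and 686 of 9657 genes were. In Hsd17b7 and Idi1, Control replicate 2 lay above all 4 stimulated libraries and Control replicate 1 below them.

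The 5 regulators and carriers held no call in Model vs. Control. Srebf2, which encodes SREBP-2, was measured at 17.4 and 26.4 FPKM for the Control pair, 20.4 and 27.1 for the Model pair and 13.9 and 19.0 for the MUS pair. Scap was measured at 3.30 and 4.49 FPKM for the Control pair, 3.67 and 3.43 for the Model pair and 2.29 and 2.47 for the MUS pair. In both genes Control and Model overlapped, and each MUS value was below each Model value.

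Insig1, itself a target of SREBP-2, was the most abundant of the 30 genes by mean and was measured at 31.7 and 60.6 FPKM for the Control pair, 50.4 and 50.5 for the Model pair and 46.4 and 43.8 for the MUS pair. The Control libraries lay on either side of the other 4. Insig2, its paralogue, was measured at 5.68 and 6.003 FPKM for the Control pair, 7.12 and 7.49 for the Model pair and 8.50 and 5.76 for the MUS pair. Both Model values lay above both Control values, and the MUS values spanned nearly all of them. The log2 fold changes in Model vs. Control, by limma with Benjamini-Hochberg adjustment, were 0.13 (SE 0.32, adjusted p = 0.803) for Srebf2 and -0.10 (SE 0.21, adjusted p = 0.775) for Scap. They were 0.20 (SE 0.35, adjusted p = 0.720) for Insig1 and 0.28 (SE 0.24, adjusted p = 0.439) for Insig2. Stard4, a sterol carrier, had a log2 fold change of -0.63 (SE 0.29, adjusted p = 0.181). The values of Srebf2, Scap, Insig1 and Stard4 depended on the Control library. Without Control replicate 2 they were 0.42 for Srebf2, 0.08 for Scap, 0.66 for Insig1 and -0.22 for Stard4. Without Control replicate 1 they were -0.16 for Srebf2, -0.27 for Scap, -0.26 for Insig1 and -1.04 for Stard4. Insig2 had 0.25 there, near its value with both libraries. The values also depended on the scale. With rescaling to fragment totals the median of all genes was -0.41. On that scale the values were -0.40 for Srebf2, -0.53 for Scap, -0.34 for Insig1, -0.20 for Insig2 and -1.10 for Stard4.

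In the fatty acid branch, 4 of 7 genes were tested, and the Model mean was below the Control mean in all 4, at a median log2 fold change of -0.51, where 4653 of 9794 genes tested were lower. Acaca encodes acetyl-CoA carboxylase, the committed step of fatty acid synthesis. It was measured at 1.17 and 1.69 FPKM for the Control pair, 0.378 and 1.18 for the Model pair and 1.16 and 1.32 for the MUS pair. Model replicate 1 was lowest and the other libraries lay close together. Fasn, the fatty acid synthase, was measured at 1.76 and 2.79 FPKM for the Control pair, 0.654 and 1.99 for the Model pair and 0.882 and 1.502 for the MUS pair. Model replicate 1 was again lowest, and Model replicate 2 lay within the Control range.

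Acaca and Fasn are long genes, and long genes as a whole deviated downward in Model replicate 1 and upward in both Control libraries, more so in Control replicate 2. Model vs. Control gave a log2 fold change of -0.48 (SE 0.29, 95% confidence interval -1.16 to 0.21, adjusted p = 0.284) for Acaca and -0.54 (SE 0.35, 95% confidence interval -1.36 to 0.28, adjusted p = 0.308) for Fasn, by limma with Benjamini-Hochberg adjustment, and neither passed. Without Model replicate 1 it was -0.15 for Acaca and -0.12 for Fasn, without Control replicate 2 -0.32 and -0.31, without both libraries 0.01 and 0.11, and with a gene-length correction, also chosen after seeing the data, -0.33 and -0.44. Whether gene length lies behind these values was not tested. Acaca shares 30.4% of its 50-base stretches with other genes, so its level is uncertain. Acly, the ATP citrate lyase that supplies acetyl-CoA, had a log2 fold change of -0.18 (SE 0.25, adjusted p = 0.650) and a mean of 19.9 FPKM over all libraries. Scd1, the delta-9 desaturase, was measured at 0.669 and 0.750 FPKM for the Control pair, 1.14 and 0.854 for the Model pair and 1.04 and 0.687 for the MUS pair, and was not tested. Elovl6 was measured at 0.408 and 0.720 FPKM for the Control pair, 0.121 and 0.161 for Model and 0.144 and 0.268 for MUS. Fads2 was measured at 0.348 and 1.04 FPKM for the Control pair, 0 and 0.300 for Model and 0.0439 and 0.245 for MUS. In both genes each Model value lay below each Control value, and neither gene was tested.

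**Figure D2:**
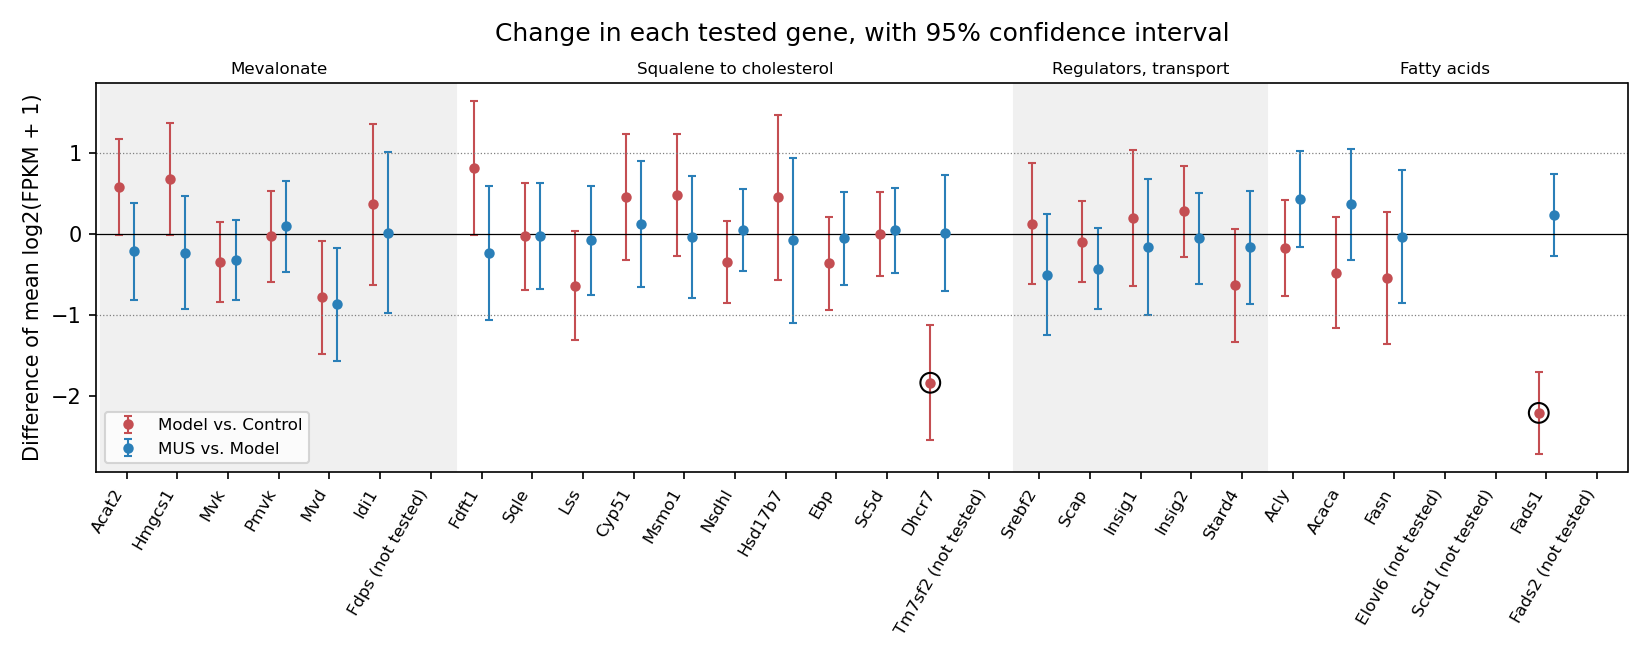
Difference of mean log2(FPKM + 1) for each tested gene, by role, in Model vs. Control (red) and MUS vs. Model (blue). Bars are 95% confidence intervals from limma, rings mark called genes and dotted lines mark a log2 fold change of 1 in either direction. Dhcr7 and Fads1 are ringed in Model vs. Control, and 0 genes are ringed in MUS vs. Model.

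Muscone was compared with LPS and ATP alone in MUS vs. Model, which shares the Model libraries with the preceding comparison. No member was called by limma, and 0% of all genes tested were. At an unadjusted p under 0.05, 1 of 25 members passed against 8.42% of all genes tested, and voom called 0 members and 0 of all genes tested. Dhcr7 and Lss were among the 25 only through their Control level, which is outside this comparison, and with only the 2 groups compared 23 members were tested. The median log2 fold change of the 25 was -0.05, against 0.01 over all genes tested. With rescaling to equal totals without mitochondrial and top 20 genes it was 0.01, against 0.07. The groups did not overlap for 3 tested members with MUS higher and 6 with MUS lower, beside 21.2% and 21% of all genes tested. A p that misses the threshold does not show that the levels were alike, and the intervals leave room for changes in either direction in most members.

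The member with the unadjusted p under 0.05 was Mvd, with a log2 fold change of -0.87 (SE 0.30, 95% confidence interval -1.57 to -0.17, adjusted p = 0.479) by limma with Benjamini-Hochberg adjustment. Both MUS values lay below both Model values, and the difference was -1.27 in batch 1 and -0.46 in batch 2. The 2 MUS values of Mvd, 1.49 and 3.15 FPKM, were themselves far apart, and over the alternatives the log2 fold change ranged from -1.24 to -0.50.

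All 5 regulators and carriers had lower means in MUS than in Model on the deposited scale, but with rescaling to equal totals without mitochondrial and top 20 genes Insig2 turned to 0.02 and Insig1 and Stard4 came to -0.08 and -0.09. In 4 of the 5 the groups did not overlap. Over all genes tested, 4771 of 9794 were lower in MUS, and 21% had groups that did not overlap with MUS lower. By limma with Benjamini-Hochberg adjustment, the log2 fold change was -0.50 (SE 0.32, 95% confidence interval -1.25 to 0.24, adjusted p = 0.734) for Srebf2. It was -0.43 (SE 0.21, 95% confidence interval -0.93 to 0.08, adjusted p = 0.668) for Scap. The values were -0.16 (SE 0.35, adjusted p = 0.943) for Insig1, -0.16 (SE 0.29, adjusted p = 0.926) for Stard4 and -0.05 (SE 0.24, adjusted p = 0.973) for Insig2, of which Insig2 overlapped. The differences were -0.52 in batch 1 and -0.49 in batch 2 for Srebf2, and -0.50 in batch 1 and -0.35 in batch 2 for Scap. Over the alternatives the log2 fold change ranged from -0.71 to -0.29 for Srebf2, both ends with 1 MUS library left out, -0.56 to -0.35 for Scap, -0.20 to -0.08 for Insig1, -0.26 to -0.06 for Stard4 and -0.30 to 0.19 for Insig2. The rescaling named above gave -0.42 for Srebf2 and -0.35 for Scap, and none of these values passed the test.

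The fatty acid genes had the opposite sign in 3 of 4 tested members. Acly had a log2 fold change of 0.43 (SE 0.25, 95% confidence interval -0.16 to 1.02, adjusted p = 0.717) and Fads1 of 0.23 (SE 0.21, 95% confidence interval -0.28 to 0.74, adjusted p = 0.831) in MUS vs. Model by limma with Benjamini-Hochberg adjustment, both without overlap and neither past the threshold. Of all genes tested, 21.2% had groups that did not overlap with MUS higher. Fasn and Acaca overlapped, with -0.03 (SE 0.35, adjusted p = 0.988) and 0.37 (SE 0.29, adjusted p = 0.788). Without Model replicate 1 the log2 fold changes were 0.04 for Acaca, 0.26 for Acly, -0.46 for Fasn and 0.23 for Fads1. Sqle had -0.02 (SE 0.28, adjusted p = 0.989). The difference between the regulators and the fatty acid genes was not tested.

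MUS vs. Control, which shares the Control libraries with Model vs. Control and the MUS libraries with MUS vs. Model, called 3 of 25 members, all lower in MUS. Of all genes tested 20.2% were called, 11.3% higher and 8.91% lower. The members were Dhcr7, Fads1 and Mvd, and Dhcr7 was tested only through its Control level. At an unadjusted p under 0.05, 7 of 25 members passed, against 39.7% of all genes tested. The groups did not overlap for 6 tested members with MUS higher and 10 with MUS lower, and over all genes tested these shares were 39.6% and 33.8%. Dhcr7 and Lss, which both passed the filter only through Control, are among the 7 and among the 10. The median log2 fold change was -0.05, with 12 higher and 13 lower, against 0.04 over all genes tested. With rescaling to fragment totals it was -0.49, with 2 higher and 23 lower, against -0.40 over all genes.

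By limma with Benjamini-Hochberg adjustment, the log2 fold change in MUS vs. Control was -1.82 (SE 0.30, adjusted p = 0.00791) for Dhcr7, -1.98 (SE 0.21, adjusted p = 0.00242) for Fads1 and -1.65 (SE 0.30, adjusted p = 0.0100) for Mvd. The differences were -2.07 in batch 1 and -1.57 in batch 2 for Dhcr7, -2.19 in batch 1 and -1.76 in batch 2 for Fads1, and -1.81 in batch 1 and -1.50 in batch 2 for Mvd. The mean of Mvd was 0.252 of Control in MUS and 0.529 in Model. Mvd passed in MUS vs. Control and not in Model vs. Control, and the direct comparison of MUS with Model, above, did not pass. Scap had -0.52 (SE 0.21, adjusted p = 0.114) and Srebf2 -0.38 (SE 0.32, adjusted p = 0.408) in MUS vs. Control.

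Leaving out libraries moved this count as well, again with the spread of the remaining single library assumed from the other groups. Without Control replicate 2, 5 members and 2345 of 9766 genes were called, with Cyp51, the lanosterol demethylase, which overlaps Akap9 (1.25 FPKM) on the opposite strand, at 1.02 and Hsd17b7 at 1.07 added as higher in MUS. Without Control replicate 1, Fads1, Mvd and Stard4 were called, all lower, with 993 of 9657 genes. Stard4 was gained there at -1.20, and Dhcr7 was no longer tested. Without MUS replicate 1, Fads1 was the only member called, with 207 of 9822 genes, and without MUS replicate 2 Fads1 and Mvd were, with 689 of 9814 genes. With no filter on low values the adjusted p by limma was 0.0725 for Mvd and 0.0638 for Dhcr7, and Fads1 alone was called, with 456 of 30192 genes. Without Control replicate 2 and Model replicate 1 together, 7 of 24 members and 3089 of 9840 genes were called. Of all genes 1789 were called higher, and of the 7 members 4 were higher in MUS, namely Cyp51, Fdft1, Hsd17b7 and Idi1, with log2 fold changes of 1.02, 1.03, 1.07 and 1.01. Without Control replicate 1 alone, Hsd17b7 had -0.33 and Idi1 -0.25, so their sign differed between the Control libraries.

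The scale also matters to these counts. The deposited FPKM follow a library scale that is not the total of fragments. It follows size factors taken from the median ratio of each library's genes to their mean over libraries. The ratio of the scale to these factors lay between 0.987 and 1.01 of its mean in all libraries. Rescaling to fragment totals, which replaces that scale, moved the median log2 fold change of all genes in Model vs. Control from 0.04 to -0.41. With fragment totals Fads1 had -2.65 and Dhcr7 -2.17, both well below the shifted median, while Mvd had -1.27 and Stard4 -1.10 and were called too, making 4 members, with 2223 of 9876 genes called, 1584 of them lower.

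Among 57 other genes of lipid metabolism, 48 were tested. Model vs. Control called 5 higher and 6 lower, MUS vs. Model 0 in either direction with 4 at an unadjusted p under 0.05, and MUS vs. Control 4 higher and 6 lower. The shares over all genes tested were 9.5% higher and 5.56% lower in Model vs. Control, 8.42% at that unadjusted p in MUS vs. Model, and 11.3% higher and 8.91% lower in MUS vs. Control. Of 10 genes of SREBP processing and degradation 1 was called higher in Model vs. Control, and of 8 tested isoprenoid genes 1. Of 12 tested genes of sterol handling 3 were higher and 4 lower, and of 18 tested genes of fatty acid supply and esterification 0 were higher and 2 lower. These subgroups stand against the same shares, and whether they differ from them was not tested.

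Ch25h, which encodes the enzyme that makes 25-hydroxycholesterol, an oxysterol that binds INSIG proteins, was measured at 0.194 and 1.49 FPKM for the Control pair, 139.6 and 77.9 for the Model pair and 61.6 and 45.9 for the MUS pair. The stimulated libraries lay far above Control, and both MUS values lay below both Model values. The log2 fold change was 5.93 (SE 0.44, adjusted p = 0.00107) in Model vs. Control and -0.96 (SE 0.44, adjusted p = 0.629) in MUS vs. Model, by limma with Benjamini-Hochberg adjustment. The mean of Ch25h was 0.842 FPKM in Control, so it passed the filter only through the stimulated groups, in which it is high. With no filter on low values its adjusted p by limma in Model vs. Control was 0.0281. Soat1, which esterifies cholesterol for storage, was measured at 84.9 and 54.1 FPKM for the Control pair, 26.2 and 22.8 for the Model pair and 21.6 and 22.6 for the MUS pair. Control was highest with no overlap, and Model vs. Control gave a log2 fold change of -1.44 (SE 0.30, adjusted p = 0.0223). Ch25h was called in Model vs. Control in 19 of 19 alternatives, and Soat1 in 12.

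The largest other increases in Model vs. Control were 2.09 in Gramd1a and 1.77 in Stard3, both of which move sterols between membranes. The largest decreases were -2.19 in Nceh1, a cholesteryl ester hydrolase, -2.18 in Scd2, a delta-9 desaturase, and -1.70 in Npc1, which exports cholesterol from lysosomes. In MUS vs. Control the increases were led by Ch25h at 4.97, Gramd1a at 1.79 and Acsl5, an acyl-CoA synthetase, at 1.34, and the decreases by Scd2 at -2.46, Nceh1 at -1.95 and Tecr, a reductase of fatty acid elongation, at -1.67. All are log2 fold changes of called genes. In Model vs. Control, Gramd1a and Stard3 were called in all 19 alternatives, Nceh1 in 17, Npc1 in 13, and Scd2 in each of the 18 that gave it a value. In MUS vs. Control, Ch25h was called in 19 of 19, Gramd1a in 18, Nceh1 and Tecr in 16 each, Acsl5 in 12, and Scd2 again in all 18. Npc1, a long gene, was at 4.57 and 12.2 FPKM in Model, and its difference from Control was -2.50 in batch 1 and -0.89 in batch 2. Without Model replicate 1 the log2 fold change of Npc1 shrank to -1.08 in Model vs. Control, with an adjusted p of 0.0907 by limma with Benjamini-Hochberg adjustment, and the call was lost, as it was without Control replicate 1, at -1.51. It was -1.88 without Control replicate 2, and with the gene-length correction -1.59, both called. The part of gene length in the values of Npc1 was not tested. Npc1 overlaps Rmc1 (6.33 FPKM) and Acsl5 overlaps Zdhhc6 (5.74 FPKM) on the opposite strand. Scd2 was at 8.11 and 10.9 FPKM in Control against 0.988 and 1.67 in Model. Scd1, also a delta-9 desaturase, was not tested and was slightly higher in Model on the deposited scale, at 0.669 and 0.750 FPKM in Control against 1.14 and 0.854 in Model. These low values rest on 74 and 83 fragments in Control and 78 and 64 in Model. The difference was 0.36 in batch 1 and 0.08 in batch 2, and the MUS values overlapped Control.

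Promoter sequence was examined because SREBP-2 acts with NF-Y and SP1 at many of these genes. RefSeq windows of the 250 bases before a start, build GRCm38.p6, were matched for 24 of the 30 genes, in 30 windows, and not for Fads1, Fdft1, Fdps, Scd1, Sqle and Stard4. Both strands were searched for the sterol regulatory element TCACNCCAC, the NF-Y box CCAAT, the GC box GGGCGG and the E-box CACGTG. The element TCACNCCAC was in 1 member window, that of Hmgcs1, and in 1.05% of all 32851 windows. CCAAT was in 18 of 30 member windows against 33.8% of all windows, GGGCGG in 22 against 32.7%, and CACGTG in 5 against 6.02%. A match is a description of these letters, not a bound site, and windows of one gene may overlap. Nor does a missing match show that a gene lacks such a site, since only these sequences within 250 bases were searched.

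The windows of Hmgcs1, which holds the sterol regulatory element, and of Mvd, called in MUS vs. Control, are shown with every matched motif in capitals, on the strand of the gene. Hmgcs1 lies at chr13:119690101-119690350 on the plus strand and Mvd at chr8:122443423-122443672 on the minus strand, GRCm38.p6.
Hmgcs1: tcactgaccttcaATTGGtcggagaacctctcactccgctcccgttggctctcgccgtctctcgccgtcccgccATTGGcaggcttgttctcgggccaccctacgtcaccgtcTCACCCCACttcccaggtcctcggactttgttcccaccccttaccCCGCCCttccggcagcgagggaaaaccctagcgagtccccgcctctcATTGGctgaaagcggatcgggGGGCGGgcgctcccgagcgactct
Mvd: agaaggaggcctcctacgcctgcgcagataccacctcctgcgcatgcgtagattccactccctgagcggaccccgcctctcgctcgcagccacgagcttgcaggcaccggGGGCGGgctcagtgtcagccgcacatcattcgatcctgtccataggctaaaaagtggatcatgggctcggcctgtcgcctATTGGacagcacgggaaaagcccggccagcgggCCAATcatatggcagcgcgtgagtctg
The Hmgcs1 window held 1 sterol regulatory element, 3 CCAAT boxes and 2 GC boxes, and the Mvd window held 0, 2 and 1.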

How the data were processed

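RNA-seq of 6 libraries was analysed, in 3 groups taken from the sample labels. The authors deposited 1 table of FPKM with a column for each library. The paper's methods name RSEM as the quantifier, whereas the submitters' processing notes name HISAT2, featureCounts 1.5.0-p3 and GRCm39. Of the gene identifiers shared with GENCODE M21, 98.3% had the same position there on GRCm38, so positions are given on GRCm38. Among the 30 members 26 did, and Fads1, Fads2, Scd1 and Tm7sf2 differed at 1 or both ends. Positions printed are those of the table, and for Fads1 the end is 10196870 there and 10196877 in GENCODE M21. The sources used here do not state counting by strand.

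From the FPKM, log2(FPKM + 1) of genes with a mean of at least 1 was fitted in R 4.3.3 with limma 3.58.1 (lmFit, contrasts.fit, eBayes with a trend), with all 6 libraries in 1 model of 3 groups. This gave 3 residual and 4.04 prior degrees of freedom. Tests were two-sided, with Benjamini-Hochberg adjustment over the 9794 genes tested. Tables, sequences and figures were made with Matplotlib 3.10.9, pandas 2.3.3 and NumPy 2.4.6 under Python 3.11.15. The code was tested on simulated data that had a smaller spread between libraries than the real ones and low levels raised, which checks the code and not the power of the fit. Recovered fragments cover counting error only, and were used with voom as an alternative.

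The labels give the replicate number also as the batch. Differences between replicates correlated across genes at 0.12 (Control with Model), -0.09 (Control with MUS) and 0.14 (Model with MUS). The replicate block was an alternative.

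The members and lists were chosen with earlier results of these data known. Values in every library are given for members called in any comparison, or beyond a log2 fold change of 1 with groups that did not overlap. They are also given for Srebf2, Scap, Insig1, Insig2, Sqle, Acaca, Fasn, Scd1, Elovl6 and Fads2. From the other lists, the called genes with the 3 largest increases and decreases of each comparison, Ch25h and Soat1 are named. Shared sequence was counted as 50-base stretches of GENCODE M21 transcripts. Other pseudocounts, filters, scalings, sample sets and omitted libraries were tried.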

Additional observations from a re-analysis of the deposited data

How the results depend on the processing

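The counts of members called were 2 in Model vs. Control, 0 in MUS vs. Model and 3 in MUS vs. Control. With the replicate block they were 2, 0 and 3, and the block changed no other call among the members. Without a filter on low values 1, 0 and 1 were called, and with a mean of at least 5 FPKM 0, 0 and 1, where only 14 of the 30 genes were tested and 1086, 0 and 1347 of 5262 genes were called. With fragment-total scaling 4, 0 and 6 were called, and 4, 0 and 6 when libraries were rescaled without mitochondrial and the top 20 genes. In both scalings the 6 include Dhcr7 and Lss, which passed the main filter only through their Control level. Leaving out each library in turn gave 1 to 4 members in Model vs. Control, 0 in MUS vs. Model and 1 to 5 in MUS vs. Control. A group of 1 library then takes its spread from the other groups. Without Control replicate 2 and Model replicate 1, a setting chosen after seeing the data as was the gene-length correction, 4, 0 and 7 were called. The cause of these shifts was not tested, apart from the fewer genes tested at 5 FPKM. A pseudocount of 0.1, quantile normalization, voom, fits of 2 groups, no variance trend, no fold threshold and the gene-length correction, with or without the replicate block, gave 2, 0 and 3.

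Over all genes, the 1475 calls in Model vs. Control became 260 without a filter, 1796 with voom, 1582 with the replicate block, 2223 with fragment-total scaling, 2419 with the other rescaling, 827 with 2 groups, 686 to 2024 when 1 library was left out and 2784 without both libraries. The 930 higher and 545 lower calls became 639 and 1584 with fragment-total scaling, 581 and 1838 with the other rescaling, and 707 and 715 with quantile normalization. The 0 calls in MUS vs. Model became 4 with the replicate block, 1 with a pseudocount of 0.1, at most 34 without 1 library and 239 without both. The 1980 calls in MUS vs. Control became 456 without a filter, 2404 with voom, 2125 with the replicate block, 2711 with fragment-total scaling, 2742 with the other rescaling, 207 to 2345 without 1 library and 3089 without both, and its 1107 higher and 873 lower calls became 730 and 1981 with fragment-total scaling, 718 and 2024 with the other rescaling, and 885 and 1102 with quantile normalization. The alternatives were run for the named genes of the other lists after their values had been seen.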
